A study of Rattus norvegicus with 30 samples.

Results

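The purinergic P2 receptor genes were followed through the brain RNA of 10 WT, 10 HIP and 10 AKO rats. The group held 9 of the 17134 genes in the table, namely 5 G protein-coupled P2Y receptors (P2ry1, P2ry6, P2ry12, P2ry13 and P2ry14) and 4 ATP-gated P2X channels (P2rx4, P2rx5, P2rx6 and P2rx7). P2ry1 was picked for its lower level in HIP vs. WT rats and the other members for belonging to the same family, so the HIP vs. WT values of the members are given as a description and carry no test. All rats were male Sprague Dawley rats on a normal diet. WT rats make rat amylin, HIP rats carry a human amylin transgene expressed in the β-cells of the pancreas and develop type-2 diabetes, and AKO rats lack the amylin gene. The HIP and WT rats used for RNA sequencing were 15 to 16 months old, and no age was found for the AKO rats of these libraries. By design the transgene is expressed in the pancreas and not in brain cells.

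P2 receptors sense nucleotides outside the cell. P2X subunits assemble as trimers into cation channels that open when ATP binds, and P2Y receptors pass the signal of ADP, UTP, UDP or UDP-sugars to G proteins. P2Y1 and P2Y6 couple mainly to Gq and raise intracellular calcium, whereas P2Y12, P2Y13 and P2Y14 couple to Gi and lower cyclic AMP. In the brain, P2Y6, P2Y12 and P2Y13 are best known from microglia, where P2Y12 guides processes to damaged cells and P2Y6 promotes phagocytosis, P2Y1 is known from astrocytes and neurons, and P2X4 and P2X7 are studied in activated microglia.

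The members sit at few places in the genome. On the RefSeq annotation of the assembly GRCr8, P2ry14, P2ry13 and P2ry12 lie close together in this order on chromosome 2, and each overlaps Med12l. P2ry1 is on the same chromosome between Mbnl1 and Rap2b. P2ry6 is next to P2ry2 on chromosome 1, P2rx4 is next to P2rx7 on chromosome 12, P2rx5 lies between Haspin and Emc6 on chromosome 10, and P2rx6 between Slc7a4 and Lrrc74b on chromosome 11. Promoter sequences of 250 bases before and 50 bases after the gene start were found in RefSeq for 6 of the 9 members, and those for P2ry6, P2ry12 and P2rx5 are not printed. Of these, 4 are shown. P2ry1 is the member chosen by its level and P2ry13 a member that followed the microglia markers, while P2rx4 and P2rx7 are neighbours whose levels went separate ways. Capitals mark GAGGAA, or TTCCTC on the other strand, the core of sites bound by PU.1, the transcription factor that directs macrophage and microglia genes. The windows are chr2:147391411-147391710 on the plus strand for P2ry1, chr2:145622735-145623034 on the minus strand for P2ry13, chr12:39523040-39523339 on the minus strand for P2rx4 and chr12:39594873-39595172 on the minus strand for P2rx7 (GRCr8, each written 5′ to 3′ on the strand of its gene).
P2ry1: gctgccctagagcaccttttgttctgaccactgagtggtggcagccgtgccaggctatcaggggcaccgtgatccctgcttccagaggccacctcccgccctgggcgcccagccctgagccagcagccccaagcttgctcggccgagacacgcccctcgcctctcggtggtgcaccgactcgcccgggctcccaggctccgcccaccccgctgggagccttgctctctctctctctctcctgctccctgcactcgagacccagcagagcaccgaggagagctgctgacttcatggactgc
P2ry13: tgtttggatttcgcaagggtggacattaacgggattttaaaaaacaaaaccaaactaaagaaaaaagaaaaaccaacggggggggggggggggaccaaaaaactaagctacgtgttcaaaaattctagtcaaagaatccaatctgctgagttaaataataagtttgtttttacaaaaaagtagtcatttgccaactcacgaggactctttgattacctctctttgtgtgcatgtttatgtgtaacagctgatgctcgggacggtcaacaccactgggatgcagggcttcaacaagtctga
P2rx4: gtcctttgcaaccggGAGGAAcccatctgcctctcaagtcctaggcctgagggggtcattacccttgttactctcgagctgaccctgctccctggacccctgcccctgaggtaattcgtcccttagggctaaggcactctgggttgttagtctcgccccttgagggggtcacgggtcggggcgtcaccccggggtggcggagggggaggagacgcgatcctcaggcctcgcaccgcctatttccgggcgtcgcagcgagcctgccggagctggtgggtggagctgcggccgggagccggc
P2rx7: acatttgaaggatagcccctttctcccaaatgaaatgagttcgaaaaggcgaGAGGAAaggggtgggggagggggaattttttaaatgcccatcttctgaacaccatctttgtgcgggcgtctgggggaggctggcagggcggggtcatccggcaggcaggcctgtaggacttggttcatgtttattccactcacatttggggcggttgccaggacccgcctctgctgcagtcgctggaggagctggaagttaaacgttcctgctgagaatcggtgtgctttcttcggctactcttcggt

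The window of P2ry1 was rich in G and C, at 67.7% of bases, above 88.4% of all promoters in the RefSeq table, whose median was 51.7%. That of P2ry13 was at 40.7%, above 13.2% of them. The windows of P2rx4 and P2rx7 were at 66.7% and 54.7%. The PU.1 core was found once each in P2rx4 (first base at -235 from the start), P2rx7 (at -198) and P2rx6 (at -92), and 27.6% of the 33469 promoters of the table hold it on either strand. It was not in the windows of P2ry1, P2ry13 and P2ry14. TATAAA, the core of a TATA box, was in none of the 6 windows and in 14.2% of all promoters. These letters alone do not mark a bound site.

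The values are counts normalized by DESeq2, a method that divides the counts of each library by a size factor. Estimated reads on genes were 12.9 to 23.6 M (mega) per rat, and every member was covered by at least 7 estimated reads in every rat. The levels were compared between groups for 1 gene at a time and not between genes, since the values are not set to gene length. The tissue goes by 3 names in the sources, hippocampus, cerebral cortex and frontal cortex, and 5 libraries stood apart by their markers. WT rat 10RT43 had summed cerebellum markers of 28838 against at most 19.3 in AKO rats and summed neocortex markers of 503 against at least 3978 in HIP and 4145 in AKO rats. HIP rat 12RT23 had cerebellum markers of 2740 (sum of 3 genes). HIP rat 10RT46 carried pineal gland (22049) and choroid plexus (15576) markers, AKO rat 7AKO19 choroid plexus markers (3711), and HIP rat 10RT48 microglia markers at 14164, above the 8999 of the next rat. Markers of striatum and olfactory bulb varied widely in all 3 groups. Values that moved most when these rats were left out are given both ways. Fewer cells of a type and less RNA per cell cannot be told apart in such bulk samples.

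**Figure D1:**
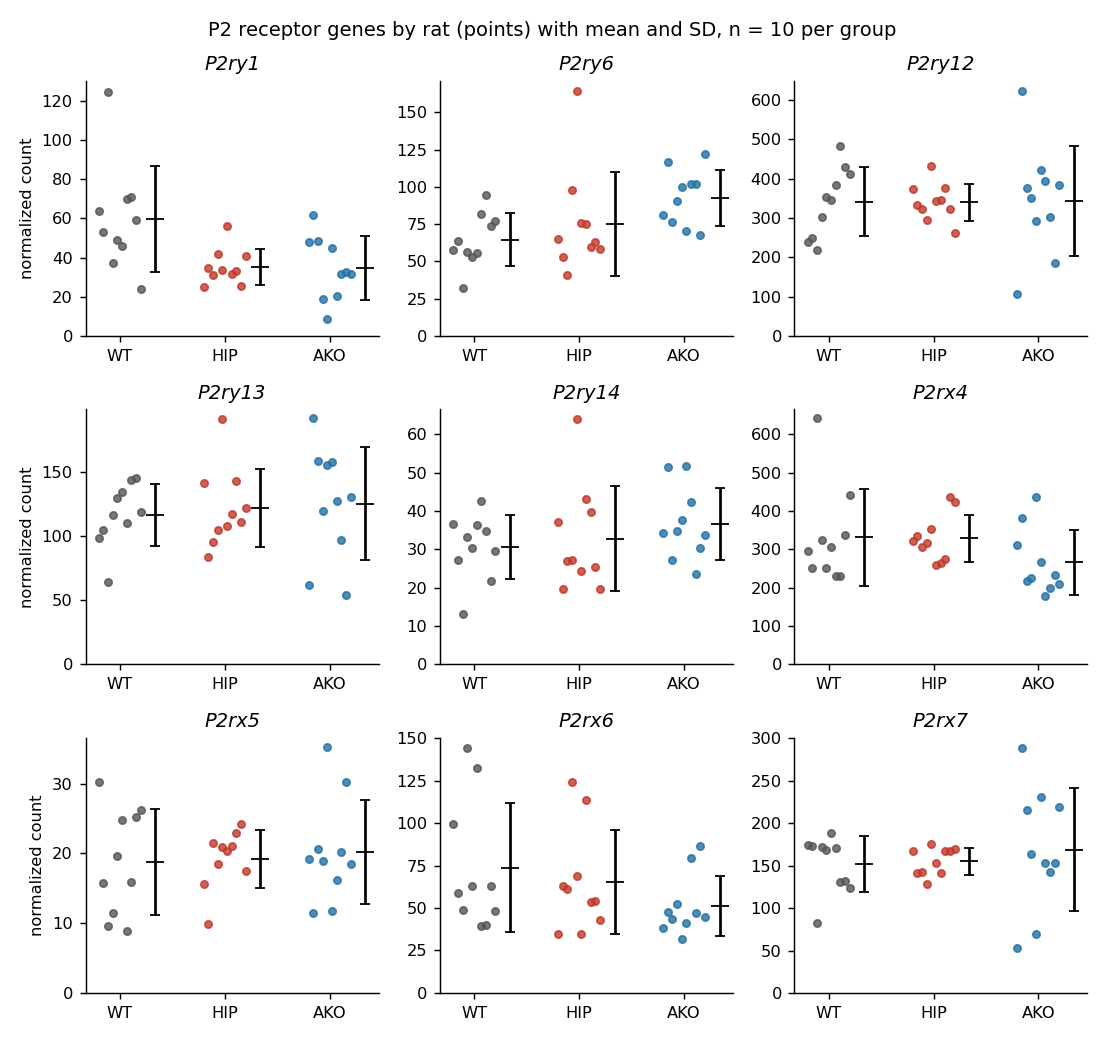
Normalized count of each member (y axes, linear, from 0) in WT, HIP and AKO rats; points are rats, and the bar beside each group is the mean with 1 SD (n = 10 per group). The groups overlap for every member. P2ry1 is mostly higher in WT rats, P2ry6 is highest in AKO rats except for 1 HIP rat at 164, and P2ry12, P2ry13 and P2rx7 spread widest in AKO rats.

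None of the 8 members other than P2ry1 passed the threshold of an adjusted p of 0.05 (limma, two-sided, Benjamini-Hochberg over all genes tested) in either tested comparison. For AKO vs. WT, 0 of these 8 were called, against 0.0997% of the 17058 genes tested (0.0528% higher and 0.0469% lower). Among the 8 only P2ry6 had an unadjusted p under 0.05, as did 9.34% of all genes. No p is given for P2ry1 in any comparison of groups, since it was picked on the values of the WT and HIP rats. For HIP vs. AKO, 0 of the 8 were called, against 0.17% of 17092 genes (0.0702% higher and 0.0995% lower). P2rx4 alone of the 8 had an unadjusted p under 0.05, as did 12.7% of all genes. For HIP vs. WT, the comparison behind the choice, 0 of 17085 genes (0%) were called and 2.57% had an unadjusted p under 0.05. The median size of the log2 fold change of all members, P2ry1 included, was 0.28 in AKO vs. WT against 0.13 over all genes. It was 0.16 in HIP vs. AKO against 0.13 and 0.07 in HIP vs. WT against 0.09. These medians are a description, since P2ry1 was picked on these rats and the genes were not matched for level. The comparisons share groups of rats and are not independent of each other.

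**Figure D2:**
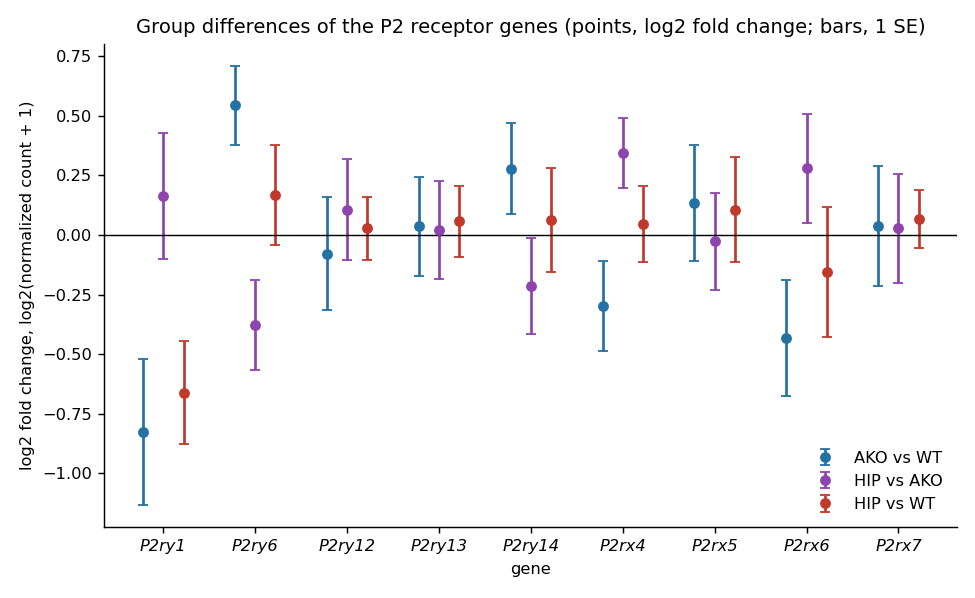
Log2 fold change of each member (y axis, on the log2(normalized count + 1) scale) for AKO vs. WT (blue), HIP vs. AKO (purple) and HIP vs. WT (red); bars are 1 SE from limma, n = 10 rats per group. P2ry1 lies at -0.83 in AKO vs. WT and -0.66 in HIP vs. WT, P2ry6 at 0.54 in AKO vs. WT, and P2ry12, P2ry13 and P2rx7 lie near 0 in each.

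P2ry1 encodes the ADP receptor P2Y1. Its normalized count was 23.8 at the lowest, 56.2 at the median and 124 at the highest in WT rats. In HIP rats it ran from 25.2 over 33.5 to 56.2, and in AKO rats from 8.504 over 32.2 to 61.6. The groups overlapped, yet only 1 HIP rat and 1 AKO rat were above the WT median. Means were 59.8 ± 27.04 in WT, 35.3 ± 9.10 in HIP and 34.6 ± 16.2 in AKO rats (SD, n = 10 per group). The HIP vs. WT difference that led to the choice of the gene was -0.66 ± 0.22 (log2 fold change ± SE). AKO rats stood -0.83 ± 0.31 from WT rats and HIP rats 0.16 ± 0.27 from AKO rats, values that use the WT and HIP rats on which the gene was picked and are a description. The highest WT value, 124, was that of 10RT43, the library with cerebellum markers, and the next was 71.2. Without this rat the WT mean was 52.6 ± 15.6 (n = 9), and without all 5 libraries that stood apart the differences were -0.60 ± 0.21 in HIP vs. WT and -0.63 ± 0.30 in AKO vs. WT. The lowest rat, AKO rat 6KAH98 at 8.504, rests on few reads. Without it alone the differences were -0.63 in AKO vs. WT and -0.03 in HIP vs. AKO.

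P2ry6 encodes the UDP receptor P2Y6. Its normalized count ran from 32.3 over a median of 60.7 to 94.7 in WT rats, from 40.9 over 63.8 to 164 in HIP rats and from 67.9 over 95.2 to 122 in AKO rats. All 10 AKO rats were above the WT median, although the ranges overlapped between 67.9 and 94.7. Means were 64.6 ± 17.7 in WT, 75.2 ± 34.9 in HIP and 92.9 ± 18.8 in AKO rats (SD, n = 10). The difference of AKO from WT rats was 0.54 ± 0.16 (log2 fold change ± SE, unadjusted p = 0.00335, adjusted p = 0.273), and it was 0.42 ± 0.15 without the libraries that stood apart (adjusted p = 0.373). HIP rats stood -0.38 ± 0.19 from AKO rats (adjusted p = 0.407). A single HIP rat, 10RT48, reached 164 while the next was at 97.9. Without that rat the difference was -0.51 (unadjusted p = 0.00276, adjusted p = 0.190), and without the 5 libraries it was -0.57 ± 0.16 (adjusted p = 0.189). HIP and WT rats differed by 0.17 ± 0.21 with all rats and by -0.14 ± 0.15 without those 5, so the sign of this small difference depended on them.

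None of the 3 Gi-coupled receptors was called in either tested comparison. P2ry12, which encodes the ADP receptor P2Y12, a marker of resting microglia, had means of 341.5 ± 87.9 in WT, 340.4 ± 46.95 in HIP and 343 ± 139.4 in AKO rats (SD, n = 10). Its values ran from 219 over 349 to 482 in WT rats, from 261 over 338 to 431 in HIP rats, and from 107 over 363 to 622 in AKO rats. The AKO range enclosed all WT and HIP rats. The lowest value belonged to 4KAH27 and the highest to 4KAH35, and the SD of the log2 values was 0.70 in AKO, 0.39 in WT and 0.20 in HIP rats, a difference in spread that was not tested. The differences were -0.08 ± 0.24 in AKO vs. WT (adjusted p = 0.931), 0.11 ± 0.21 in HIP vs. AKO (adjusted p = 0.850) and 0.03 ± 0.13 in HIP vs. WT (log2 fold change ± SE). The last was -0.04 without WT rat 10RT43.

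P2ry13, whose product P2Y13 also binds ADP, ran from 64.6 over 118 to 144.96 in WT rats, from 83.9 over 114 to 192 in HIP rats and from 53.95 over 129 to 192 in AKO rats. The AKO range held all WT and HIP rats, the highest HIP and AKO rats both rounding to 192. It differed by 0.04 ± 0.21 in AKO vs. WT (adjusted p = 0.966), 0.02 ± 0.20 in HIP vs. AKO and 0.06 ± 0.15 in HIP vs. WT (log2 fold change ± SE), the last at -0.03 without 10RT43. P2ry14, which encodes the receptor for UDP-glucose, ran from 13.2 over 31.7 to 42.5 in WT rats, from 19.7 over 27.03 to 63.9 in HIP rats and from 23.6 over 34.6 to 51.7 in AKO rats. AKO rats stood 0.28 ± 0.19 from WT (adjusted p = 0.642) and HIP rats -0.21 ± 0.20 from AKO (adjusted p = 0.669), and HIP vs. WT was 0.06 ± 0.22. Without 10RT43, the AKO vs. WT difference of P2ry14 was 0.16 ± 0.16 (adjusted p = 0.754) and that of HIP vs. WT -0.06 ± 0.19, and without the 5 libraries the first was 0.13 ± 0.17. The spans of the 3 genes overlap that of Med12l. Overlap of exons was not looked at, and how reads of the 2 strands were counted is not given in the sources used here. Whether reads of Med12l were counted for the receptors is therefore not known. Med12l ran from 168 to 523, and its rank correlation with them was between 0.15 and 0.18 over the 30 rats after the group means were subtracted.

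Among the channels, P2rx4 encodes P2X4, an ATP-gated channel found largely in lysosomes of microglia. Its normalized count ran from 230.1 over 300.4 to 641 in WT rats, from 259 over 318 to 437 in HIP rats and from 178 over 229 to 435 in AKO rats. All 10 HIP rats were above the AKO median, and the ranges of these groups still overlapped over most of their width. Means were 331 ± 126 in WT, 329 ± 61.4 in HIP and 266 ± 84.7 in AKO rats (SD, n = 10). HIP rats stood 0.34 ± 0.15 from AKO rats (log2 fold change ± SE, unadjusted p = 0.0301, adjusted p = 0.340), and without the 5 libraries the difference was 0.22 ± 0.17 (unadjusted p = 0.200). AKO rats stood -0.30 ± 0.19 from WT rats (adjusted p = 0.619), or -0.13 ± 0.16 without those libraries. The WT value of 641 was again that of 10RT43, and the next was 442. HIP and WT rats differed by 0.04 ± 0.16, or by 0.16 ± 0.12 without 10RT43. P2rx4 overlaps Camkk2, whose normalized count ran from 2596 to 5646, and reads of the pair may be shared. Their rank correlation was 0.27.

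P2rx7 encodes P2X7, the channel that opens at high ATP and leads to release of interleukin-1β. It ran from 82.5 over 170 to 189 in WT rats, from 129 over 160 to 176 in HIP rats and from 53.5 over 158.6 to 289 in AKO rats. HIP rats lay closest together, with an SD of the log2 values of 0.15 against 0.36 in WT and 0.76 in AKO rats, and in AKO rats 4KAH27 (53.5) and 6KAH98 (69.3) were below all HIP rats and 4KAH35 (289) was the highest of all rats. Without the 5 libraries that stood apart, the SD of the log2 values was 0.12 in HIP, 0.23 in WT and 0.81 in AKO rats. This difference in spread was not tested. The differences were 0.04 ± 0.25 in AKO vs. WT (adjusted p = 0.970), 0.03 ± 0.23 in HIP vs. AKO (adjusted p = 0.966) and 0.07 ± 0.12 in HIP vs. WT, the last at -0.03 without 10RT43. P2rx5 and P2rx6 encode channel subunits known from neurons and muscle, the second forming few channels by itself. P2rx5 had the fewest estimated reads beside P2ry1 (8 at the lowest) and group means of 18.8 ± 7.59 in WT, 19.2 ± 4.17 in HIP and 20.2 ± 7.44 in AKO rats. It differed by 0.13 ± 0.24 in AKO vs. WT and -0.03 ± 0.20 in HIP vs. AKO. P2rx6 ran from 39.5 over 60.8 to 144.5 in WT, from 34.8 over 57.7 to 124 in HIP and from 31.6 over 45.9 to 86.7 in AKO rats. AKO rats stood -0.43 ± 0.24 from WT rats (unadjusted p = 0.0899, adjusted p = 0.583) and 8 of 10 were below the WT median. Without the libraries that stood apart this was -0.56 ± 0.25 (unadjusted p = 0.0367, adjusted p = 0.508). P2rx6 overlaps Lrrc74b (1.63 to 41.7), with a rank correlation of -0.09.

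**Figure D3:**
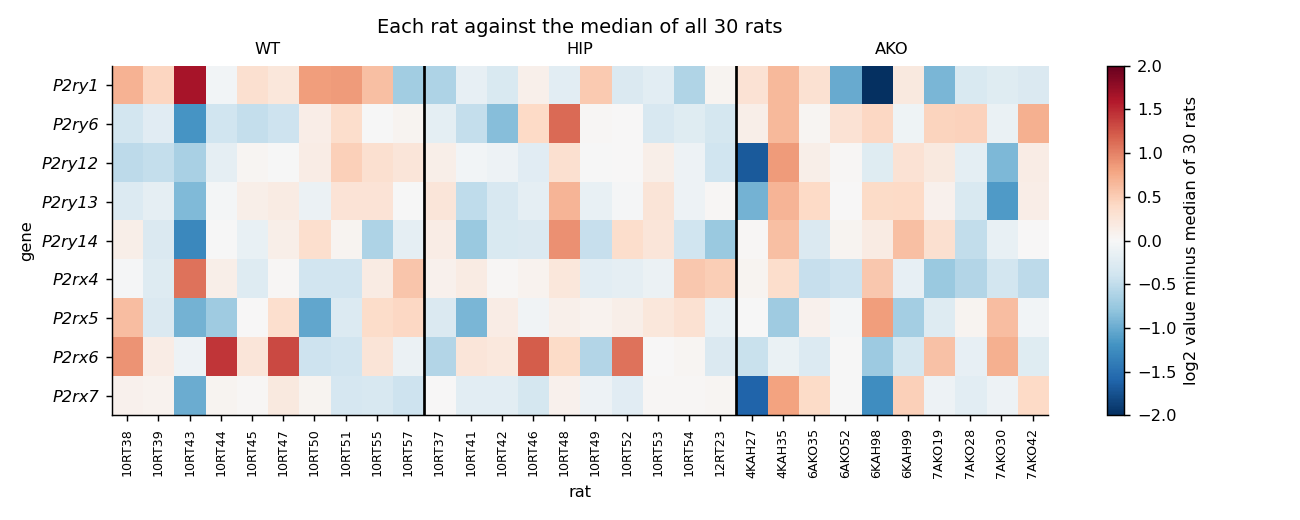
Log2 value of each member (rows) in each rat (columns, in groups) minus the median of all 30 rats, from -2 (blue) to 2 (red). AKO rat 4KAH27 is low in P2ry12, P2ry13 and P2rx7 together, and 4KAH35 is high in all members except P2rx5 and P2rx6. WT rat 10RT43 is high in P2ry1 and P2rx4 and low in P2ry6, P2ry12, P2ry13, P2ry14, P2rx5 and P2rx7.

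The levels of microglia and brain macrophage markers were set beside these differences. Of 10 microglia markers (among them Cx3cr1, Tmem119, Csf1r, Aif1, Itgam, Trem2, Tyrobp, C1qa and C1qb), none was at 0 in any group. In AKO vs. WT, 9 were higher and 1 lower by sign, with 0 called. At an unadjusted p under 0.05, 6 were higher, and 9.34% of all genes passed in either direction. Itgam, an integrin of myeloid cells, was at 310 ± 108 in AKO vs. 164 ± 36.9 in WT rats (0.87 ± 0.18, adjusted p = 0.0623), and the complement gene C1qa at 1514 vs. 1030 (0.56 ± 0.12, adjusted p = 0.0790). Tmem119, a marker of resident microglia, was at 290.0 vs. 383 (-0.48 ± 0.24, adjusted p = 0.545), so the list did not move as one. In HIP vs. AKO, 6 were lower and Tmem119 higher at an unadjusted p under 0.05, which 12.7% of all genes passed, and 0 were called. The summed level of the list ran from 3622 to 7144 in WT, from 4992 to 14164 in HIP and from 5666 to 8999 in AKO rats. Of 3 brain macrophage markers, 0 were called in either comparison. Cd163, a scavenger receptor of perivascular macrophages, was at 43.6 ± 12.4 in WT, 35.4 ± 11.2 in HIP and 62.4 ± 16.9 in AKO rats (0.51 ± 0.19 in AKO vs. WT, adjusted p = 0.394, and -0.81 ± 0.20 in HIP vs. AKO, adjusted p = 0.0982). The mannose receptor Mrc1 was at 87.5, 76.5 and 118 (0.43 ± 0.21, adjusted p = 0.543, and -0.64 ± 0.22, adjusted p = 0.237), and Lyve1 at 70.2, 55.3 and 55.002 (-0.30 ± 0.18, adjusted p = 0.602, and -0.03 ± 0.19, adjusted p = 0.956). The summed level of these 3 ran from 138.7 to 289 in WT, from 106 to 237 in HIP and from 157.9 to 349 in AKO rats. The part of both lists in the differences of the P2 receptors between groups was not tested.

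Of the 9 members, P2ry6 had the highest correlation with the microglia markers across rats. The level of the list in a rat was taken as the mean of the log2 values of its 10 genes, and 9 correlations were computed, 1 for each member. For P2ry6 Pearson's r was 0.87 (n = 30, two-sided permutation test, p = 1e-05, the smallest that 100000 resamples can give, adjusted p = 9e-05) and Spearman's rho was 0.80. Within groups r was 0.89 in WT, 0.91 in HIP and 0.67 in AKO rats (n = 10 each, permutation tests, adjusted p = 0.00918, 0.00603 and 0.113). Without the 2 rats farthest from the median of the list, 10RT43 and 10RT48, r was 0.78.

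P2ry13 had r = 0.64 and rho = 0.58 (n = 30, permutation test, adjusted p = 0.00054 and 0.00437). Within WT, HIP and AKO rats r was 0.82, 0.76 and 0.75 (n = 10 each, permutation tests, adjusted p = 0.0570, 0.0641 and 0.0837). Spearman's rho was lower there, at 0.31, 0.50 and 0.41. Without the 2 farthest rats r was 0.50. P2ry14 had r = 0.62 and rho = 0.47 (permutation test, adjusted p = 0.0012 and 0.0242). Without those 2 rats its r was 0.35 and did not pass (permutation test, adjusted p = 0.127). Within WT, HIP and AKO rats its r was 0.81, 0.72 and 0.04, and its rho 0.37, 0.55 and 0.22. P2ry12 had r = 0.48 and rho = 0.52 (permutation test, adjusted p = 0.0206 and 0.0104). Without the 2 rats its r was 0.42 and did not pass either (permutation test, adjusted p = 0.0681). Within WT, HIP and AKO rats its r was 0.68, 0.63 and 0.76 (permutation tests, adjusted p = 0.0337, 0.156 and 0.0837). Its rho there was 0.64, 0.35 and 0.32. For P2ry1 r was -0.41 and rho -0.20, and r was -0.29 without the 2 rats. This gene was picked on WT and HIP rats used here, so these values are a description and carry no test. The 4 channels did not pass after adjustment, with r between -0.38 for P2rx4 and 0.32 for P2rx7 (permutation tests, adjusted p = 0.0599 and 0.111).

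**Figure D4:**
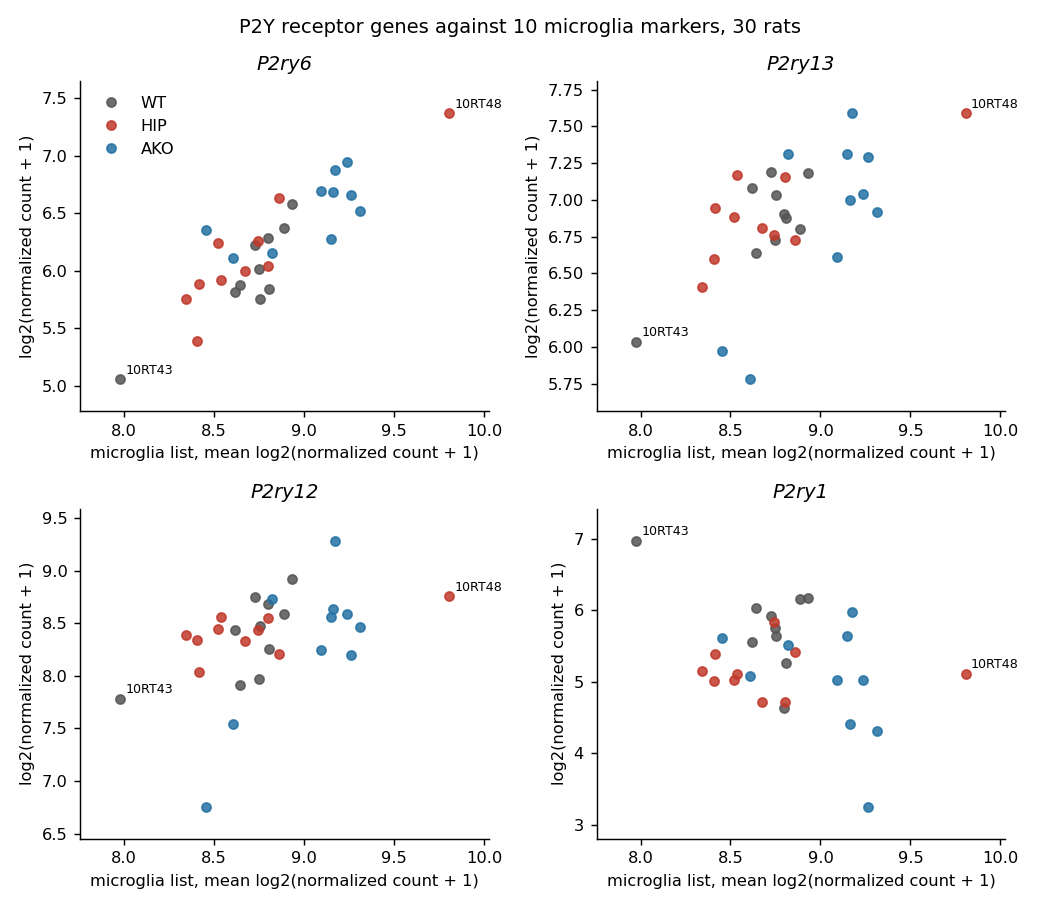
Log2(normalized count + 1) of P2ry6, P2ry13, P2ry12 and P2ry1 (y axes) against the mean log2 value of 10 microglia markers (x axes) in 30 rats (points, WT grey, HIP red, AKO blue). P2ry6 rises along the list in each group. Over all rats r is 0.87 for P2ry6, 0.64 for P2ry13 and 0.48 for P2ry12, and within AKO rats it is 0.67, 0.75 and 0.76. P2ry1 is at -0.41 over all rats, or -0.29 without 10RT43 and 10RT48.

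The named genes whose levels ran most like each member over the 30 rats, after the group means were subtracted, were taken by Spearman's rho. Genes known only by an Ensembl number were left out of these lists, although some lay nearer. Among all 15525 genes P2ry13 ranked 3 for P2ry12, and P2ry12 ranked 2 for P2ry13. They are a description and share the libraries and their tissue content. For P2ry6 they were Ifi27l2b (0.82), Arhgdib (0.80) and Spi1 (0.80), the gene of PU.1. P2ry12 and P2ry13 ranked among the 3 nearest genes of each other (rho 0.78), beside Parp12 (0.79) and Epsti1 (0.76) for P2ry12 and Evi2b (0.78) and Slco2b1 (0.75) for P2ry13. P2ry14 had lower values, with Atp13a4 (0.66), Htr5a (0.66) and Mki67 (0.64). P2ry1 was nearest to Phactr4 (0.83), Nrf1 (0.75) and Strip2 (0.75).

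The channels each had another set. P2rx7 was nearest to Shroom4 (0.85), Nav1 (0.83) and Itsn2 (0.82), and P2rx4 to Sac3d1 (0.74), Rps10 (0.68) and AABR07072440.1 (0.67). These 2 neighbours on chromosome 12 had a rho of -0.17 with each other. P2rx5 was nearest to Ttll1 (0.71), Vps53 (0.68) and Ankrd13d (0.68), and P2rx6 to Whrn (0.80), Trpm2 (0.80) and Dgka (0.80).

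The wider pathway was read from a list of 39 genes, of which 36 are in the table. None was called in AKO vs. WT or HIP vs. AKO. In AKO vs. WT, 5 of the 35 tested had an unadjusted p under 0.05 (14.3%, against 9.34% of all genes) and all 5 were higher (2 of 6 ATP release genes, 2 of 7 ecto-nucleotidases, 0 of 8 adenosine genes, 0 of 5 other P2 receptors and 1 of 9 G proteins and their effectors). The ATP release channel Panx1 was at 503 ± 157.5 vs. 346 ± 115 (0.57 ± 0.21, unadjusted p = 0.0127, adjusted p = 0.393), the vesicular nucleotide transporter Slc17a9 at 13.3 ± 4.34 vs. 8.57 ± 3.41 (0.62 ± 0.23, adjusted p = 0.394) and the phosphatase Alpl at 269 ± 84.3 vs. 198 ± 30.7 (0.40 ± 0.15, adjusted p = 0.419). In HIP vs. AKO, 4 of 36 had an unadjusted p under 0.05 (11.1%, against 12.7% of all genes), 2 higher and 2 lower. Phospholipase Plcb1, which acts after Gq, was at 4066 ± 1069 vs. 3040.1 ± 617.9 (0.40 ± 0.16, adjusted p = 0.311), Panx1 at 384 ± 108 vs. 503 ± 157.5 (-0.39 ± 0.17, adjusted p = 0.355) and the channel Calhm1 at 3.44 ± 3.85 vs. 0.910 ± 1.02 (0.98 ± 0.44, adjusted p = 0.360), where both groups include rats at 0. Of the other P2 receptors, P2ry2, P2ry4, P2rx1, P2rx2 and P2rx3 were in the table, none with an unadjusted p under 0.05, and P2ry10 was not analysed here.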

How the data were processed

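Brain RNA of 30 rats (10 WT, 10 HIP and 10 AKO) was sequenced on an Illumina HiSeq from libraries made with a SMARTER kit. Per the submitters' processing notes, Partek 10.0.22.0228, Bowtie2, STAR 2.7.8a and DESeq2 were used with the genome build rn7. The authors deposited normalized counts, a signal on a count scale that is not whole numbers, for 17134 genes. What 1 read is worth, the step, was set in each rat from its commonest value between 0.3 and 3. That value was divided by the first whole number for which at least 75% of values under 100 were whole multiples. The step accounted for 80.8% to 84.4% of values under 100 in a rat (to within 0.02 of a read). Whole reads were therefore not recovered and no count test was run. Dividing by the step gave the estimated reads. No 2 libraries held identical values (highest correlation 0.989). The labels do not say whether the rats came from separate litters, so p-values measure the spread between these rats.

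Groups were compared with limma 3.58.1 in R 4.3.3 (lmFit, eBayes with trend, two-sided) on log2(normalized count + 1), which understates changes of low genes, for genes whose mean reached 1 in the compared rats, and with no covariate. Adjusted p-values are Benjamini-Hochberg over all tested genes. Correlations used 100000 permutations and adjustment over the 9 members (Python 3.11.15, numpy 2.4.6, scipy 1.17.1, pandas 2.3.3). Before use, simulated data with known changes were run through the fit as a test. The members and lists were chosen with earlier results of these data known. The genes named are the 9 members, the 3 genes of the pathway list with the smallest p in each comparison, and the 3 genes nearest to each member. The last were taken among genes with a symbol, not only an Ensembl number, whose mean reached 10. Microglia and macrophage markers were named after their values were seen, and 1 microglia marker, which counts in the sums and means, is not reported here by itself. Entpd2, Entpd8 and P2ry10 and some markers (Ms4a7, Cldn5, Flt1, Car8 and those of blood) had no symbol match and were not analysed here. A planned order of members per kilobase was not run, since no lengths were used here. RefSeq sequences are of GRCr8, and only gene order and overlaps were taken from its gene table. Alternatives were other pseudocounts (0.1 and 5), other filters (none, or a mean of 10), 1 fit of all rats, robust eBayes, sample-quality weights, quantile and median-ratio scaling, leaving out each rat, and leaving out the 4 rats set apart earlier or, added after the data were seen, 5 rats.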

Additional observations from a re-analysis of the deposited data

Results flagged for a closer look

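In 5 of the 27 sets of 10 rats (9 members in 3 groups), 1 rat lay far above the others. Its gap to its nearest neighbour was large against the range of the group (critical value of Dixon at 95%). Chance gives about 1.35 such sets for normally distributed values. These counts were not log-transformed, so that number is only a rough guide. P2ry1 was at 124.37 in WT rat 10RT43 and at 56.1954 in HIP rat 10RT49. P2rx4 was at 640.987 in the same WT rat, 10RT43. P2ry6 and P2ry14 were at 164.416 and 63.8816 in HIP rat 10RT48. 10RT43 carried the cerebellum markers and 10RT48 the highest microglia markers, whose part in these values was not tested.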

How the results depend on the processing

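No paired analysis was possible because the labels give no replicate numbers that the groups share. The count of members called stayed at 0 in both tested comparisons under every alternative except sample-quality weights. With weights, P2ry6 was called in AKO vs. WT (0.58, adjusted p = 0.0108) and P2rx4 in HIP vs. AKO (0.50, adjusted p = 0.0178). P2ry1, picked on these WT rats, is not counted and was at -0.82 in AKO vs. WT. The count over all genes rose from 17 to 857 and from 29 to 1143. The other settings gave 12 to 27 and 13 to 59 genes, with 27 and 56 in 1 fit of all rats. In that fit P2rx4 in HIP vs. AKO had an unadjusted p of 0.0503. Leaving out 1 rat gave 0 members each time, and 10 (without WT rat 10RT38) to 39 (without AKO rat 4KAH27) genes in AKO vs. WT and 17 (without HIP rat 10RT53) to 70 (without HIP rat 10RT46) in HIP vs. AKO.

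Log2 fold changes that turned sign were small ones. With weights they were 0.10 for P2ry12, -0.01 for P2ry13 and -0.071 for P2rx5 in AKO vs. WT, and -0.017 for P2ry12, 0.064 for P2rx5 and -0.14 for P2rx7 in HIP vs. AKO. Quantile scaling gave 0.019 for P2rx5 in HIP vs. AKO. Without the 4 rats P2ry13 was -0.0675 and P2rx7 -0.056 in AKO vs. WT and P2ry13 -0.029 in HIP vs. AKO, and without the 5 rats -0.0675, -0.056 and -0.043. On leaving out 1 rat, P2ry12, P2ry13 and P2rx7 ran from -0.19 to 0.093, -0.054 to 0.16 and -0.065 to 0.20 in AKO vs. WT. In HIP vs. AKO, P2ry1, P2ry12, P2ry13, P2rx5 and P2rx7 ran from -0.0285 to 0.27, -0.065 to 0.22, -0.10 to 0.10, -0.11 to 0.068 and -0.14 to 0.13. In HIP vs. WT, where members have no test, P2ry12, P2ry13, P2ry14 and P2rx7 went from 0.03, 0.06, 0.06 and 0.07 to -0.04, -0.03, -0.06 and -0.03 without WT rat 10RT43. The causes were not tested.

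Some correlations with the microglia list lost the threshold with fewer rats. Those of P2ry12 and P2ry14 were 0.42 and 0.35 without the 2 farthest rats, 0.41 and 0.32 without the 4 rats, and 0.39 and 0.24 without the 5 rats. Those of P2ry13 and P2ry14 were 0.82 and 0.81 within WT, 0.76 and 0.72 within HIP, and 0.75 and 0.042 within AKO rats. P2ry12 was at 0.63 within HIP and 0.76 within AKO rats, and P2ry6 at 0.67 within AKO rats. P2ry1, which carries no test, was at -0.29 without the 2 farthest rats and -0.24 without the 4 or the 5 rats. Within WT, HIP and AKO rats it was at -0.58, -0.0013 and -0.44. Correlations past no threshold that turned sign were those of P2rx4 (0.087) and P2rx6 (0.11) within HIP rats and of P2rx5 without the 2 farthest (-0.037), the 4 (-0.015) and the 5 rats (-0.029) and within AKO rats (-0.051). Low depth limits P2ry1, P2rx5 and P2ry14, with 7, 8 and 11 estimated reads in their lowest rats.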
